A study of Danio rerio with 9 samples.

Results

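Caspases are proteases that cut their substrates after aspartate residues and carry out programmed cell death. They were followed here in zebrafish embryos that had been injected with mRNA for Hif-1α or Hif-3α, which are alpha subunits of hypoxia-inducible factors (HIFs), transcription factors that respond to low oxygen. The genes were taken by name, as every array probe whose RefSeq identifier belongs to a gene with a symbol made of casp and a digit. The genes reported from this rule had 22 probes and numbered 12, among 43603 probes on the array, of which 25069 had a symbol and 18534 did not. One match, casp8ap2, encodes a protein that associates with caspase-8 and is no protease, and it is described apart, which left 20 probes of 11 caspase genes. Of 16 such symbols in the RefSeq gene table, casp10, casp17, casp21 and casp22 were not matched to a probe. The genes casp6b.1, casp6b.2 and casp8 were chosen by their measured differences between these same groups, so their differences are given as a description, and no test of them is used.

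Whole embryos of the Tuebingen strain were collected at 12 h after fertilization. The 3 groups were embryos that received GFP mRNA (green fluorescent protein, the control), embryos that received Hif-1α mRNA and embryos that received Hif-3α mRNA. The injected embryos kept their own HIF genes, and each group held 3 arrays, every array from the RNA of 60 pooled embryos. The 9 RNA samples came from 3 independent microinjection experiments, and embryos without an injection were not analysed here.

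Caspases are made as inactive precursors. Initiator caspases are switched on by dimerisation on large adaptor complexes, caspase-8 at death receptors of the cell surface and caspase-9 at the apoptosome that forms after cytochrome c leaves the mitochondria. They then cleave and activate the executioner caspases, such as caspase-3 and caspase-6, which cut structural and nuclear proteins such as lamins. Because the precursor proteins are activated by dimerisation or cleavage, an mRNA level does not give the activity of the enzyme.

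The measurement was the signal of 1-colour oligonucleotide arrays. Levels are log2 signals relative to the 75th percentile of the same array, a difference is the mean level of the group named first minus that of the other, and the error of a difference is its standard error (SE; n = 3 arrays in each group). The 75th percentile lay between 766 and 822 on the control arrays, between 500.4 and 611 on the Hif-1α arrays and between 609 and 785 on the Hif-3α arrays. Between 68.6% and 75.3% of the probes were well above background on an array, and 3 arrays a group limit the precision of every value. The arrays fell on 4 scan days, and the third day held 2 control, 1 Hif-1α and 2 Hif-3α arrays while every other day held a single group. Of the 4 probes of hif1al, the Hif-3α gene, 3 were higher with Hif-3α than in controls by 5.85 to 8.49 and the other differed by -0.02. With Hif-1α the 4 differed from controls by -0.05 to 0.13. Values of probes for the Hif-1α genes themselves are not given, so the injected Hif-1α mRNA was not checked here. Of 47 marker genes of embryonic tissues with a probe, 41 were well above background on every array and 4 on none. These 4 were col9a1a of the notochord list and mpx, lyz and mpeg1.1 of the myeloid list. Of the 7 myeloid markers with a probe, 3 were well above background on every array.

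Of the 11 caspase genes, 9 were measured, that is, some group had all 3 of its arrays well above background for a probe of the gene: 4 initiators (casp2, casp8, casp9 and casp20) and 5 executioners (casp3a, casp3b, casp6a, casp6b.1 and casp6b.2). Casp20 was listed with the initiators, though its role is less certain than those of the others. The 9 genes had 14 such probes, and the brightest stood for its gene among the 19549 genes and unnamed transcripts tested. A gene is said to pass when its Benjamini-Hochberg adjusted p in limma was under 0.05 over all of them. For Hif-1α against control 9.5% of all genes passed, and 3 of the 9 caspases did, casp6b.1, casp6b.2 and casp8, all higher. For Hif-3α against control 1 gene of all passed, 0.00512%, and that gene was casp6b.2. The Hif-3α gene hif1al thus did not pass in this fit with 1 probe a gene, though 3 of its probes were higher, as given above. This share therefore misses a gene known to be raised. With every probe fitted on its own, 10 probes passed. When Hif-3α was set against Hif-1α, 0.926% of all genes passed (0.189% higher and 0.737% lower), and 0 of the 9 caspases did in limma, with 4 at an unadjusted p under 0.05, as 19% of all genes had. Casp6b.1 and casp6b.2 also entered the fit through the HIF groups alone, since neither was well above background on every control array. Since these comparisons chose the 3 genes, nothing is read from the counts of any of them.

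The arrays of the groups were also compared for overlap. Every Hif-1α array lay above every control array for 3 of the 9 caspases, the same 3, against 17.2% of all genes, and below for 0 of them, against 16.8%. Every Hif-3α array lay above every control array for 3 of the 9, again the same 3, against 7% of all genes, and below for 0, against 4.24%. All 6 HIF arrays lay above all controls for these 3, against 4.04% of all genes, and nothing is read from these counts either. Every Hif-3α array lay above every Hif-1α array for casp6b.2 and casp3a, against 15.3% of all genes, and below for casp6b.1 and casp9, against 11.2%.

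The casp8 gene, the initiator of the death receptor route, was higher with each HIF subunit than in controls. Its brighter probe, A_15_P115561, stood at -0.27, -0.52 and -0.23 in control replicates 1 to 3. With Hif-1α its levels were 0.59, 0.43 and 0.51, and with Hif-3α they were 0.79, 0.42 and 0.85. All 6 HIF arrays lay above the 3 control arrays, while the Hif-1α and Hif-3α arrays overlapped. The group means ± SD were -0.34 ± 0.16 in controls, 0.51 ± 0.08 with Hif-1α and 0.68 ± 0.23 with Hif-3α (n = 3 each). The difference from control was 0.85 ± 0.15 with Hif-1α, 1.8-fold, and 1.02 ± 0.15 with Hif-3α, 2.03-fold. The other probe of casp8, A_15_P176121, gave the same order of group means. Before scaling, the signals of the brighter probe were 636, 573 and 677 in controls, 754, 822 and 803 with Hif-1α and 1050.0, 1050.0 and 1240.0 with Hif-3α. On that scale every Hif-3α array lay above every Hif-1α array, and the 75th percentiles by which signals were scaled were lower on the Hif-1α arrays than on the control arrays, as given above.

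On A_15_P176121 the control levels were -1.77, -2.02 and -1.94. The levels of this probe were -0.75, -1.04 and -0.90 with Hif-1α, and -0.81, -0.99 and -0.60 with Hif-3α. Again no HIF array reached down to a control array, and the HIF groups overlapped. The differences of this probe from control were 1.01 ± 0.15 (2.02-fold) with Hif-1α and 1.11 ± 0.15 (2.16-fold) with Hif-3α. Hif-3α minus Hif-1α was 0.17 ± 0.15 on the first probe and 0.09 ± 0.15 on the second. The unscaled signals of the second probe were 225, 203 and 207 in controls, 298, 297 and 301 with Hif-1α and 347, 396 and 454 with Hif-3α. Within the third scan day the first probe differed from control by 0.80 with Hif-1α and 1.01 with Hif-3α. Over the 9 fits that each left out 1 array, the difference of Hif-1α from control ranged from 0.76 to 0.91 on the first probe.

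**Figure D1:**
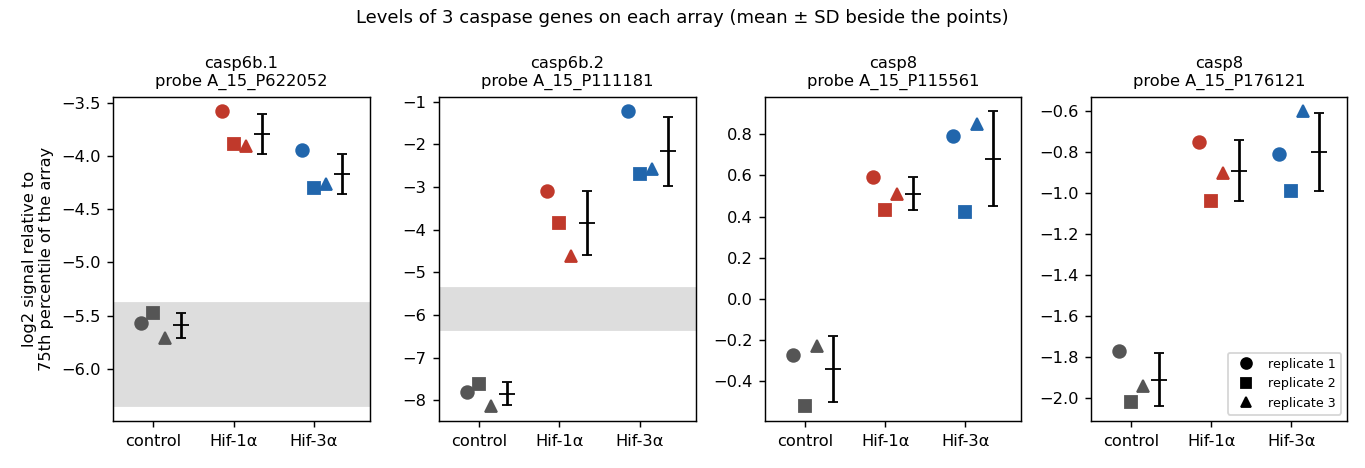
Level of each array (log2 signal relative to the array's 75th percentile, y axis, with its own range in each panel) by group (x axis) for the probes of casp6b.1, casp6b.2 and casp8; bars are mean ± SD, marker shapes are replicate numbers, and the grey band spans, over the 9 arrays, the lowest level that was well above background (-6.35 to -5.38). The control arrays of casp6b.2 lie below the band at -8.14 to -7.61, those of casp6b.1 lie inside it, and in all 4 panels every HIF array lies above every control array.

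The largest differences among the caspases were those of casp6b.2, an executioner of the caspase-6 group with a single probe, A_15_P111181. Its control levels were -7.80, -7.61 and -8.14, and the probe was not well above background on any control array. With Hif-1α the casp6b.2 levels were -3.10, -3.84 and -4.61. With Hif-3α they were -1.23, -2.70 and -2.57. The probe was well above background on all 6 HIF arrays, and every Hif-3α array lay above every Hif-1α array.

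A fold against a group with no array above background is given as an approximate lower bound. It was taken against the higher of the lowest signal that was well above background on each control array and the probe's own signal. The bound is not strict, since a probe above that lowest signal could still be called dim. On control replicate 1 the lowest such signal was 15.4, and casp6b.1 at 16.2 was not well above background. Expressed so, casp6b.2 was at least 4.41-fold higher with Hif-1α and at least 14.2-fold higher with Hif-3α than in controls. The measured group means ± SD were -7.85 ± 0.27, -3.85 ± 0.75 and -2.17 ± 0.81 for control, Hif-1α and Hif-3α (n = 3 each), which put the measured differences at 4.00 ± 0.46 and 5.68 ± 0.46. Hif-3α was above Hif-1α by 1.68 ± 0.46, 3.21-fold.

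Before scaling, the casp6b.2 signals of the controls were 3.43, 4.20 and 2.81, those of Hif-1α were 58.4, 42.7 and 23.1, and those of Hif-3α were 259, 121 and 116. Arrays with the same replicate number differed, Hif-3α minus Hif-1α, by 1.87, 1.14 and 2.04. The smallest of these came from the pair of replicate 2, which shared a slide and a scan day. Within the third scan day casp6b.2 differed from control by 4.04 with Hif-1α and by 5.24 with Hif-3α, and Hif-3α exceeded Hif-1α by 1.21. The difference of Hif-3α from control ranged from 5.22 to 5.95 over the 9 fits. With normexp background correction, which adds an offset of 50 to every signal, and the 75th percentile, the differences from control were 0.22 for Hif-1α and 1.25 for Hif-3α. With normexp and quantile normalization they were 0.67 and 1.51.

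Casp6b.1, another gene of the caspase-6 group, was higher with both subunits as well, by less. On probe A_15_P622052 the control levels were -5.57, -5.47 and -5.71, well above background in replicates 2 and 3 alone. The levels were -3.58, -3.89 and -3.91 with Hif-1α and -3.94, -4.30 and -4.26 with Hif-3α. The 3 groups did not overlap, with Hif-1α the highest and controls the lowest. The group means ± SD were -5.59 ± 0.12, -3.79 ± 0.19 and -4.17 ± 0.19 in controls, with Hif-1α and with Hif-3α (n = 3 each). Against control the difference was 1.79 ± 0.15 (3.47-fold) with Hif-1α and 1.42 ± 0.15 (2.67-fold) with Hif-3α.

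The order of the HIF groups for casp6b.1 was the reverse of that for casp6b.2. Hif-3α minus Hif-1α was -0.37 ± 0.15 for casp6b.1, and the 3 replicate numbers gave -0.37, -0.41 and -0.35. Before scaling the casp6b.1 signals of the HIF groups lay close together, at 42.0, 41.3 and 37.3 with Hif-1α and 39.6, 39.9 and 36.0 with Hif-3α, against 16.2, 18.5 and 15.1 in controls. With normexp correction and the 75th percentile the differences of casp6b.1 were -0.01 (Hif-1α minus control), 0.27 (Hif-3α minus control) and 0.28 (Hif-3α minus Hif-1α). The first and the last thus changed sign. In this setting the medians of all genes were -0.20, 0.03 and 0.21 in the same order. The cause of the sign changes was not tested. With normexp and quantile normalization they were 0.42, 0.32 and -0.10, in the directions of the main values. Within the third scan day the casp6b.1 differences from control were 1.71 and 1.32. The other casp6b.1 probe, A_15_P737406, was not well above background on any array, with signals of 2.08 to 3.57. Probe sequences were not at hand, so whether the casp6b.1 and casp6b.2 probes bind each other's transcripts was not tested.

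In assembly GRCz12tu, as the RefSeq gene table has it, casp6b.1, casp6a and casp6b.2 follow each other on chromosome 3 with 0 protein-coding genes between them. Casp6a, the gene between them, did not pass in any comparison. Its levels were -2.45, -2.16 and -2.78 in controls, -2.30, -1.85 and -2.41 with Hif-1α and -2.42, -2.27 and -2.54 with Hif-3α. All 3 groups of casp6a overlapped. It differed from control by 0.28 ± 0.20 with Hif-1α (limma adjusted p = 0.405, 95% interval -0.19 to 0.74) and by 0.06 ± 0.20 with Hif-3α (limma adjusted p = 0.988, 95% interval -0.41 to 0.52). The difference between casp6a and its neighbours was not tested. The same table places casp8, casp8l1 and casp20 on chromosome 6 with 1 protein-coding gene between each neighbouring pair.

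**Figure D2:**
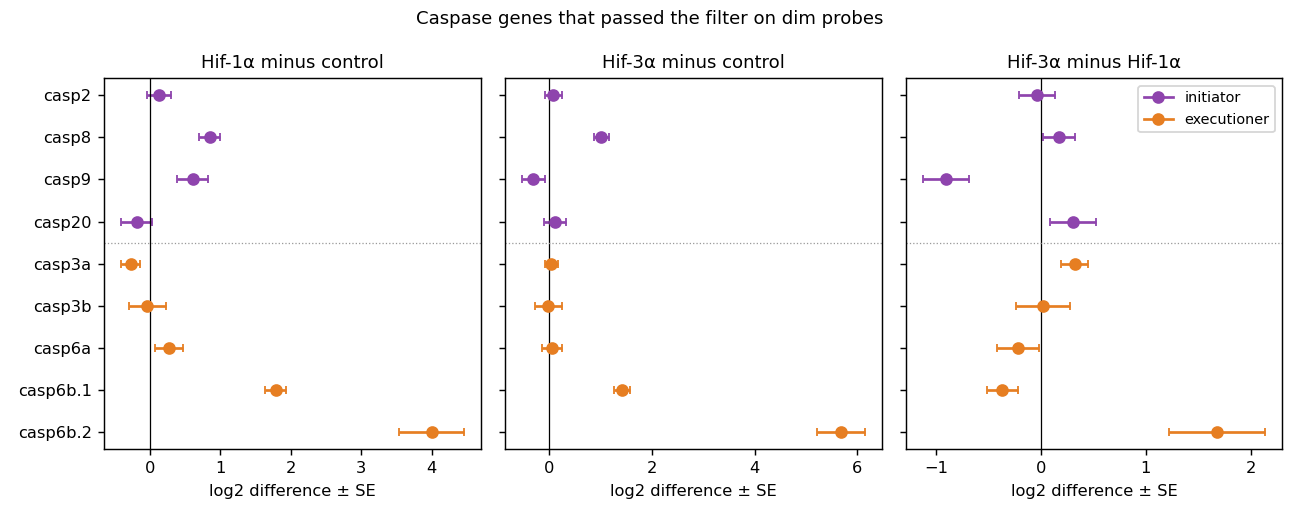
Differences (log2, x axis, with its own range in each panel, mean ± SE from the fit over 9 arrays) of the 9 measured caspase genes (y axis), initiators above the dotted line and executioners below it, for Hif-1α minus control, Hif-3α minus control and Hif-3α minus Hif-1α. The genes casp6b.2, casp6b.1 and casp8, which were chosen for these differences, lie right of 0 in both panels against control, and casp9 lies at -0.91 in the panel of Hif-3α minus Hif-1α.

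Among the other initiators, casp9, the caspase of the apoptosome, had the largest differences. Its levels were -2.32, -1.56 and -2.10 in controls, -1.58, -1.47 and -1.08 with Hif-1α and -2.43, -2.36 and -2.08 with Hif-3α. The control arrays overlapped both HIF groups, while every Hif-3α array lay below every Hif-1α array, as given above. Casp9 differed from control by 0.61 ± 0.22 with Hif-1α (limma adjusted p = 0.117) and by -0.30 ± 0.22 with Hif-3α (limma adjusted p = 0.878). Hif-3α minus Hif-1α was -0.91 ± 0.22, with a 95% interval from -1.42 to -0.40 and a limma adjusted p of 0.0973. That difference was -0.85, -0.89 and -0.99 for replicate numbers 1, 2 and 3. Without control replicate 2, whose casp9 level was the highest of its group, the difference of Hif-1α from control was 0.83 and passed (limma adjusted p = 0.0403).

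The casp2 gene, an initiator linked to the PIDDosome complex, differed by 0.13 ± 0.17 with Hif-1α and by 0.09 ± 0.17 with Hif-3α on its brightest probe (limma adjusted p = 0.646 and 0.967). Its 95% intervals were -0.25 to 0.52 and -0.29 to 0.48. All 4 of its probes were measured, and their differences of Hif-1α from control ran from -0.05 to 0.33. The levels of casp20 were 1.45, 1.14 and 1.70 in controls, 1.29, 0.92 and 1.54 with Hif-1α and 1.62, 1.27 and 1.75 with Hif-3α. Replicate 2 was the lowest and replicate 3 the highest in each group of casp20, and the groups overlapped. Casp20 differed from control by -0.18 ± 0.22 with Hif-1α and by 0.12 ± 0.22 with Hif-3α (limma adjusted p = 0.62 and 0.968), with 95% intervals of -0.67 to 0.31 and -0.37 to 0.61.

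The caspase-3 genes did not pass in any comparison. For casp3a, 1 of the zebrafish counterparts of the main executioner of apoptosis, probe A_15_P105110 stood at 1.20, 1.34 and 1.34 in controls, 0.93, 1.25 and 0.89 with Hif-1α and 1.37, 1.34 and 1.30 with Hif-3α. Hif-1α replicates 1 and 3 were the lowest arrays of casp3a, and Hif-1α replicate 2 lay between the control values. Casp3a differed from control by -0.27 ± 0.13 with Hif-1α (limma adjusted p = 0.207, 95% interval -0.56 to 0.02) and by 0.05 ± 0.13 with Hif-3α (limma adjusted p = 0.983, 95% interval -0.25 to 0.34). Its other probe differed by -0.10 and 0.02.

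Casp3b, the other counterpart of caspase-3, had levels of -4.15, -3.69 and -3.63 in controls, -4.30, -3.36 and -3.91 with Hif-1α and -3.98, -3.99 and -3.54 with Hif-3α. Its differences from control were -0.03 ± 0.26 and -0.01 ± 0.26 (limma adjusted p = 0.951 and 0.999), with 95% intervals of -0.63 to 0.57 and -0.61 to 0.59. Its second probe was well above background on control replicate 3 alone.

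Set side by side by role and without casp6b.1, casp6b.2 and casp8, the 3 other initiators had a median difference from control of 0.13 with Hif-1α (-0.18 to 0.61) and 0.09 with Hif-3α (-0.30 to 0.12). The 3 other executioners had medians of -0.03 (-0.27 to 0.28) and 0.05 (-0.01 to 0.06). Over all genes tested the medians were -0.01 and 0.02. For Hif-3α minus Hif-1α the medians were -0.04 for those initiators, 0.02 for those executioners and 0.03 for all genes. None of these 6 genes passed in any of the 3 comparisons. The ranges of initiators and executioners overlapped in each comparison, and differences within a role were larger than those between the medians of the roles. The initiators here include casp20, whose role is less certain.

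**Figure D3:**
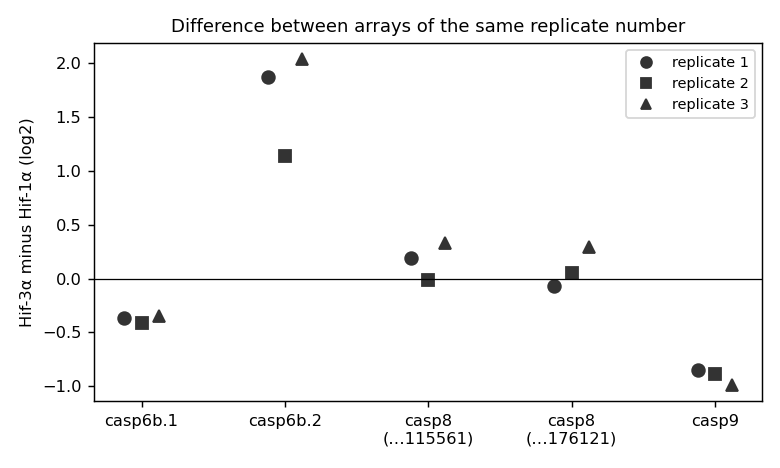
Hif-3α minus Hif-1α (log2, y axis) between arrays of the same replicate number, for casp6b.1, casp6b.2, the 2 probes of casp8 and casp9 (x axis), with 1 point a replicate number. All 3 points lie above 0 for casp6b.2 (1.14 to 2.04) and below 0 for casp6b.1 (-0.41 to -0.35) and casp9 (-0.99 to -0.85), and those of casp8 lie on both sides of 0.

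The 2 remaining caspase genes were too dim to compare. Casp23 was not well above background on any array with either of its probes. Of the 2 probes of casp8l1, a caspase-8-like gene beside casp8, A_15_P149561 was not well above background on any array and A_15_P729906 was so on Hif-1α replicate 3 alone, at -4.68. The related inflammatory caspases caspa, caspb and caspbl carry no digit in their symbols, and only caspb was measured. Caspa was well above background on control replicates 1 and 2 alone, at -5.31 and -5.78, and caspbl on no array.

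Caspb, a caspase of the inflammasome in zebrafish, had levels of -1.76, -0.60 and -0.36 in controls, -2.60, -1.29 and -0.92 with Hif-1α and -2.06, -0.72 and -0.06 with Hif-3α. Replicate 1 was the lowest in each group, and the groups overlapped. Caspb differed from control by -0.70 ± 0.62 with Hif-1α (limma adjusted p = 0.492) and by -0.04 ± 0.62 with Hif-3α (limma adjusted p = 0.998). With the replicate number as a block the difference of Hif-1α passed (limma adjusted p = 0.017), as did Hif-3α minus Hif-1α, 0.66, at an adjusted p of 0.0487. With that block 10.9% of all genes were lower with Hif-1α than in controls, and 1.9% were higher with Hif-3α than with Hif-1α. The dimmer caspb probe differed from control by -0.89 with Hif-1α and by -0.02 with Hif-3α. Casp8ap2, the caspase-8-associated protein, had levels of -0.92, -0.66 and -0.77 in controls, -0.15, -0.52 and -0.51 with Hif-1α and -0.54, -0.87 and -0.76 with Hif-3α on its brighter probe. Every Hif-1α array of casp8ap2 lay above the others, and its difference from control of 0.39 ± 0.15 did not pass (limma adjusted p = 0.137). Its other probe differed by 0.05.

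Beyond the caspases, 7 lists of cell death genes held 85 names, of which 58 had a probe and 53 were measured. For Hif-1α against control 4 rose and 3 fell, against 5.73% of all genes that rose and 3.77% that fell, and the median difference was 0.14 against -0.01 over all genes. With the replicate number as a block 11 rose and 5 fell, where 11.7% of all genes rose and 10.9% fell. For Hif-3α against control 0 of the 53 passed in limma, with 9 at an unadjusted p under 0.05, against 6.09% of all genes, and a median of 0.06 against 0.02. For Hif-3α against Hif-1α 0 passed, with 15 at an unadjusted p under 0.05, against 19% of all genes; once the replicate number was a block, 3 rose (aifm1, cycsb and lmnb1) and 2 fell (bik and tnfrsf1a), where 1.9% of all genes rose and 2.65% fell. With scan day as a block, where the comparison rests on the third day alone, 0 of the 53 passed for Hif-1α against control and 12 had an unadjusted p under 0.05, against 11.7% of all genes. The counts of single lists that follow are for Hif-1α against control and stand against the same shares, 5.73% that rose and 3.77% that fell. Calls made with the replicate block stand against 11.7% that rose and 10.9% that fell.

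Of 11 measured death receptors, ligands and adaptors, some of which act upstream of caspase-8, 2 rose with Hif-1α and the median difference was 0.24. Tnfrsf1a, a receptor for tumor necrosis factor, stood at -1.44, -0.77 and -1.08 in controls and at 0.33, 0.52 and 0.27 with Hif-1α, without overlap. It rose by 1.47 ± 0.18, 2.76-fold (limma adjusted p = 0.00514), and was at -0.58, -0.49 and -0.41 with Hif-3α, 0.60 ± 0.18 above control (limma adjusted p = 0.559). Its ligand gene tnfb stood at -1.46, -1.11 and -1.80 in controls and at 0.66, 0.31 and 0.18 with Hif-1α. It rose by 1.85 ± 0.30, 3.6-fold (limma adjusted p = 0.0136). Leaving out control replicate 3 or Hif-1α replicate 1 ended the pass of tnfb (limma adjusted p = 0.0521 and 0.0522).

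Of 10 measured pro-apoptotic members of the BCL2 family, which open the mitochondria, 2 rose with Hif-1α, with a median of 0.40. Bik, a BH3-only protein, stood at -0.37, -0.32 and -1.22 in controls and at 1.26, 1.23 and 1.22 with Hif-1α. It rose by 1.87 ± 0.25, 3.66-fold (limma adjusted p = 0.00715), and its Hif-3α levels of 0.47, -0.11 and 0.05 were 0.77 ± 0.25 above control (limma adjusted p = 0.624). Bbc3, the PUMA protein and a target of p53, stood at -1.80, -2.29 and -2.42 in controls and at -0.57, -1.12 and -0.71 with Hif-1α. It rose by 1.37 ± 0.25, 2.59-fold (limma adjusted p = 0.0189), and no longer passed when control replicate 3 or either replicate 1 or 3 of Hif-1α was left out, with adjusted p of 0.064 to 0.0705. With the replicate block 4 of the 10 rose, where 11.7% of all genes rose. Bmf1, a BH3-only gene, and bokb, a relative of BAX and BAK, then passed too, at 1.01 and 0.48 (limma adjusted p = 0.0144 and 0.0494 with the block, 0.0605 and 0.0729 without it). With normexp and the 75th percentile the Hif-1α differences of bik, bbc3, bmf1 and bokb were 1.51, 0.72, 0.10 and -0.05. The median of all genes was -0.20 in that setting. Of 5 measured anti-apoptotic BCL2 genes 0 passed in limma, with a median of 0.37, and bcl2l1 and bcl2l10 passed with the replicate block (limma adjusted p = 0.0303 and 0.0363).

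The list of the apoptosome, the complex of caspase-9, and of proteins released from mitochondria had 6 measured genes. Of these 2 fell with Hif-1α, and the median was -0.46. Aifm1, a mitochondrial flavoprotein, stood at 2.31, 1.91 and 2.44 in controls, 1.15, 1.15 and 1.1 with Hif-1α and 1.86, 2.05 and 1.95 with Hif-3α. It fell by 1.09 ± 0.15 on the log2 scale with Hif-1α (limma adjusted p = 0.00767), and no Hif-1α array overlapped another group. Endog, a mitochondrial nuclease, stood at 0.48, -0.73 and 0.16 in controls and at -0.99, -1.34 and -1.13 with Hif-1α. It fell by 1.13 ± 0.28 on the log2 scale (limma adjusted p = 0.0432) and passed in only 1 of the 9 fits that left out an array, the one without control replicate 2, with adjusted p of 0.0568 to 0.132 in the other 8. Apaf1, the scaffold of the apoptosome, differed by 0.17 ± 0.22 (limma adjusted p = 0.638). Cycsb, a cytochrome c gene, differed by -0.89 ± 0.24 (limma adjusted p = 0.055) and passed with the replicate block (limma adjusted p = 0.00595).

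Among 13 measured caspase substrates lmnb1, a nuclear lamin, fell with Hif-1α and the median was -0.11. Its levels were 2.06, 1.78 and 2.06 in controls, 1.23, 1.42 and 1.40 with Hif-1α and 1.96, 2.04 and 1.90 with Hif-3α. It fell by 0.62 ± 0.13 on the log2 scale (limma adjusted p = 0.025), and did not pass when control replicate 1 or 3 or any 1 Hif-1α array was left out (limma adjusted p = 0.0511 to 0.0864). Gsnb, a gelsolin gene, differed by -0.61 ± 0.22 (limma adjusted p = 0.118) and passed with the replicate block (limma adjusted p = 0.0258). Of 5 measured inhibitors of apoptosis and 3 genes of the inflammasome and gasdermins 0 passed in limma, with medians of 0.05 and 0.01. With the replicate block xiap, birc5b and il1b passed for Hif-1α (limma adjusted p = 0.022, 0.0345 and 0.0323). Il1b was well above background on 3 Hif-1α arrays but on only 1 control and 1 Hif-3α array. It thus entered the fit through the Hif-1α group alone, and nothing is read from its pass. Its difference of 1.71 from control was -0.30 with normexp and the 75th percentile. Within the third scan day, with its 1 Hif-1α array, the 7 genes that passed differed by 1.24 to 2.00 if they rose and by -1.06 to -0.50 if they fell. Their directions could not change there, since no Hif-1α array of these genes overlapped a control array. Nothing is read from the directions.

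**Figure D4:**
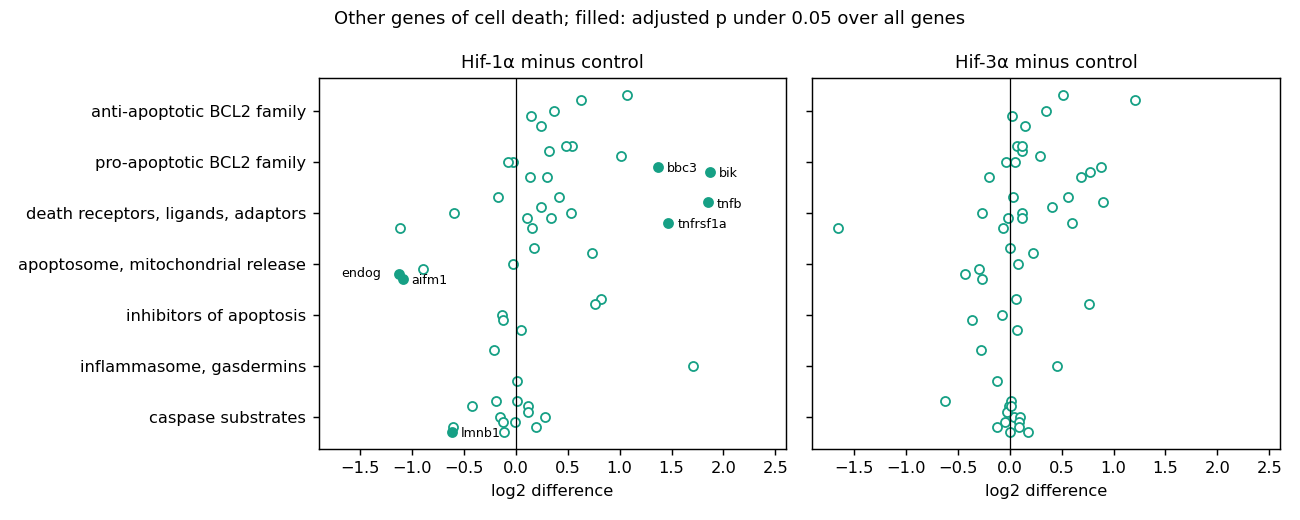
Difference from control (log2, x axis) of each measured gene of the 7 cell death lists (y axis, 1 row a list), with Hif-1α on the left and Hif-3α on the right. Filled points passed at an adjusted p under 0.05, which 7 genes did with Hif-1α and 0 did with Hif-3α.

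Sums of some tissue markers differed between the same groups. Such a sum weighs each marker by its signal, so the brightest can set it, and values of single markers are not given. Summed over each marker list, in units of the 75th percentile of the array, the 6 epidermal and periderm markers lay at 732 to 856 in controls, 972 to 1140.0 with Hif-1α and 871 to 918 with Hif-3α. The 4 hatching gland markers lay at 229 to 243, 292 to 367 and 251 to 256 in the same order, and the 4 germ line markers at 0.553 to 0.656, 1.07 to 1.30 and 0.719 to 1.04. For these 3 lists, as for the caspase genes casp6b.1, casp6b.2 and casp8, every HIF array was above every control array after scaling. Sums before scaling are not given, and the 75th percentiles were lower on the Hif-1α arrays than on the control arrays. The yolk syncytial layer markers lay at 6.87 to 11.4, 16.8 to 20.8 and 9.76 to 13.7, and the blood and vessel markers at 12.8 to 13.2, 5.67 to 11.2 and 10.6 to 12.4. For blood and vessel every HIF array was thus below every control array. The neural markers lay at 76.0 to 79.1, 70.7 to 73.2 and 79.7 to 87.0, so both HIF groups lay outside the control range, on opposite sides. Those of paraxial mesoderm (70.2 to 80.9, 68.5 to 76.7 and 75 to 86.5), notochord (15.7 to 17.2, 17.1 to 18.7 and 16.5 to 18.7) and myeloid cells (12.1 to 14.6, 14.0 to 15.6 and 10.7 to 13.6) overlapped the controls in both HIF groups. In whole embryos more cells of a type and more RNA per cell cannot be told apart, and the part of these markers in the caspase differences was not tested.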

How the data were processed

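Total RNA of 9 pools was labelled with Cy3 and hybridised to 1-colour Agilent arrays. Per the file headers the grid design is 026437, a zebrafish design, whereas the labels' labelling protocol speaks of a mouse array. Each deposited file holds processed signals, which Feature Extraction 10.7.3.1 had background-subtracted and detrended, and median spot and background signals, all as intensity values. The deposited flags (well above background, saturated, outlier) are other values of 0 or 1. The deposited matrix is in log2 units after GeneSpring 11.0, per the labels' design text, and served as an alternative.

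Probes were named through unversioned RefSeq identifiers in the RefSeq gene table (GRCz12tu), for names and neighbours and without coordinates, because the array design used an earlier assembly. Control spots and outlier spots were left out, spots of a probe were averaged, and no spot was saturated. Log2 processed signals minus the array's 75th percentile were kept for the 31117 probes that all 3 arrays of some group had well above background. The brightest probe stood for its gene. Limma 3.58.1 in R 4.3.3 fitted 1 mean per group over the 9 arrays with 6 residual degrees of freedom, two-sided, with Benjamini-Hochberg adjustment over 19549 genes. The fit was also run on simulated arrays, drawn independently without replicate pairing, slides or scan days. That run therefore does not show how the fit behaves where arrays are related in those ways. The median SE of a difference was 0.193.

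The titles number the replicates, and the design text names 3 independent experiments. Deviations of same-numbered arrays from their group means correlated at 0.11 to 0.583 in all 9 pairs, and those of arrays with unlike numbers at -0.494 to 0.0718. Deviations cancel out within a group, so positive values for same-numbered arrays push those for unlike numbers down. The numbers were taken to pair the samples from the 9 same-numbered pairs. The main fit left this pairing out, so its SE, intervals and adjusted p do not use it. Alternatives were the replicate block, scan day as a block, the third scan day alone, slide as a random block, normexp on the median signals with an offset of 50, quantile and median scaling, the deposited matrix, other filters and probe rules, the compared groups alone, and leaving out each array.

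The text names every probe of the reported caspases (1 gene that the rule matched is not reported here and is left out of every caspase count), and up to 3 passing members by smallest p of each of 7 lists: anti-apoptotic BCL2 family, pro-apoptotic BCL2 family, death receptors with ligands and adaptors, apoptosome and mitochondrial release, inhibitors of apoptosis, inflammasome and gasdermins, and caspase substrates. Apaf1 and the genes that passed only with the replicate block were named after their values were seen. Members and lists were chosen with earlier results of these data known.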

Additional observations from a re-analysis of the deposited data

How the results depend on the processing

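The number of genes past the threshold depended strongly on the processing. For Hif-1α against control it was 1857, and 6 with normexp and the 75th percentile, 705 without a filter on dim probes, 695 with the compared groups alone, 4404 with the replicate block, 4 with scan day as a block, 0 within the third scan day (2262 at an unadjusted p under 0.05 in limma) and 374 to 2059 leaving out 1 array. Scaling by the array median turned its split of 1120 higher and 737 lower into 843 and 1247. That scaling shifted the median of all genes to -0.12. Normexp with the 75th percentile shifted this median to -0.20. With normexp and quantiles the median was -0.02, and 1886 genes passed. For Hif-3α against control it was 1, and 2 in the deposited matrix, 6 with the mean of all kept probes, 10 with every probe on its own and 0 to 14 leaving out 1 array. It was 0 with normexp under either scaling, without a filter, with probes well above background on all arrays, with the compared groups alone, with scan day as a block and within the third scan day, with 82 to 1303 at an unadjusted p under 0.05. For Hif-3α against Hif-1α it was 181, and 5 with normexp and the 75th percentile, 365 with normexp and quantiles, 81 without a filter, 300.0 with every probe on its own, 889 with the replicate block, 0 with scan day as a block or within the third scan day, and 56 to 281 leaving out 1 array.

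For caspases, Hif-1α against control gave 3, and 0 with normexp and the 75th percentile, 1 (casp8) with probes well above background on all arrays, 0 with scan day as a block, 0 within the third scan day, 2 (casp6b.1 and casp8) with normexp and quantiles, and 2 to 4 leaving out 1 array, with casp8 lost without control replicate 3 or Hif-1α replicate 1 or 3. Hif-3α against control gave 1, and 2 (casp6b.1 and casp6b.2) with the mean of probes or every probe on its own, 0 to 1 leaving out 1 array (0 without control replicate 1 or 3, Hif-1α replicate 2 or Hif-3α replicate 3), and 0 under the same settings that gave 0 genes. Hif-3α against Hif-1α gave 0, and 1 (casp6b.2) with the replicate block. Passes of casp6b.1, casp6b.2 and casp8 are given as a description, since these genes were chosen from the same comparisons, and nothing is read from them. For the cell death lists, Hif-1α against control gave 7, and 16 with the replicate block, 0 with normexp and the 75th percentile, 0 with scan day as a block or within the third scan day, and 3 to 11 leaving out 1 array (3 without control replicate 3 or Hif-1α replicate 1, 4 without Hif-1α replicate 3, 11 without control replicate 2). Hif-3α against Hif-1α gave 0, and 5 with the replicate block, 4 with normexp and quantiles, 2 with the compared groups alone, 1 each with quantiles, the array median and slide as a random block, and 0 to 2 leaving out 1 array. Under normexp with the 75th percentile casp6b.1 went to -0.01 (Hif-1α minus control) and 0.28 (Hif-3α minus Hif-1α), where the medians of all genes were -0.20 and 0.21. The cause was not tested. Of the 396 values of the 6 other caspases under 22 alternatives 1 passed, casp9 without control replicate 2. Beyond the values given, the pairing by replicate changed no other call of a caspase or cell death gene. The fit by scan day left 3 residual degrees of freedom, and the third day alone 2. Slide as a random block was chosen after seeing the data.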

Other observations

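The genes whose levels followed casp6b.2 most closely over the 9 arrays were taken among 3882 genes with a range of at least 1 log2 unit, as a description, since these arrays share their groups, experiments and slides. They were rbm44, an RNA-binding protein gene (Pearson r = 0.964), tle3a, a Groucho-type corepressor gene (r = 0.956), casp8 (r = 0.939), cry5, a gene of the cryptochrome and photolyase family (r = 0.925), and ca10a, a carbonic anhydrase-related gene (r = 0.925). The mean level of rbm44 was -3.44 in controls, -2.04 with Hif-1α and -1.83 with Hif-3α. That of tle3a was -3.0, -2.57 and -2.28 in the same order. Casp8 and casp6b.2 were both chosen by their differences between these groups, so nothing is read from the place of casp8 here. Ca10a, like casp6b.2, was not well above background on any control array, and it was so on 2 Hif-1α and 3 Hif-3α arrays.

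The 3 genes closest to casp8 were casp6b.2, tent5c, a poly(A) polymerase gene (r = 0.926), and myhz2, a myosin heavy chain gene of fast muscle (r = 0.924). Tent5c had mean levels of 0.43 in controls, 1.68 with Hif-1α and 1.45 with Hif-3α. Myhz2 was not well above background on any control array and was so on all 6 HIF arrays, at means of -3.24 with Hif-1α and -3.76 with Hif-3α. Casp6b.1 correlated with casp6b.2 at 0.883 and with casp8 at 0.891. Since all 3 genes were chosen by their differences between these same groups, nothing is read from the correlations among them.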
